A study of Mus musculus with 13 samples.

Results

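Genes of the actin filament and of contraction, 10 in number, were followed in mouse brain tumors and in normal brain: the tropomyosins Tpm1, Tpm2 and Tpm4, the calponins Cnn1, Cnn2 and Cnn3, the transgelins Tagln and Tagln2, the smooth muscle actin Acta2 and the myosin regulatory light chain Myl9. They were taken by name from among 55416 counted genes, and they were chosen by their fold changes between these same groups, which were known when the names were put together. Their levels and fold changes are therefore a description. Where a member is said to be called, this is the outcome of a fit over all genes, given for reference, and neither it nor a count of called members is independent evidence. Reads were read from the row of each gene and from every row whose exons lie opposite its exons on the other strand.

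Polyadenylated RNA had been sequenced from 13 libraries. The PDGFB tumors (n = 5, genotype label PDGFB-shP53) were glioblastomas raised in the motor cortex by a lentivirus that carried PDGFB and a short hairpin RNA against p53. The RAS tumors (n = 5) came from a virus with HRasV12 and the same kind of hairpin. All tumor mice expressed Cre recombinase from the Cnp locus, which is active in oligodendrocytes, and GFP-positive tissue was taken at the clinical endpoint from 5 mice in each group. The normal brain samples (n = 3) are labelled wild type. The title of normal sample 3 begins MBT where the other titles begin NBT, which the labels do not explain. The protocol speaks of normal tissue trimmed away from tumors without naming these samples, their brain region is not named, and their titles mark both sexes, so region, genotype and tumor cannot be told apart in comparisons with them. Ages are not given in the labels. Whether the normal samples came from separate animals is not stated, and p-values measure only the spread between these samples.

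Actin filaments in most cells are sheathed by tropomyosins, coiled-coil proteins that decide which myosins and filament-cutting proteins can bind. Calponins and transgelins are related proteins that hold and bundle actin filaments. In vessel walls, Acta2, Cnn1, Tagln and Myl9 are textbook genes of smooth muscle cells and pericytes, and several of these genes are known targets of serum response factor (SRF), which binds the CArG box, and of TEAD factors, which bind the MCAT box, whose core reads GGAATG or, on the other strand, CATTCC.

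RefSeq promoter sequences (GRCm38.p6, 250 bases before to 50 bases after the start of the gene) matched 9 of the 10 members, all but Tagln. The promoters of Tpm2, Cnn2 and Acta2 are shown because these genes had under 2 CPM on average in PDGFB tumors and reads in every RAS tumor (levels below). Capital letters mark matches to a CArG box of the strict form CCWWWWWWGG, where W is A or T, or to GGAATG, searched on both strands. Looser forms of the CArG box were not searched for and stay in small letters.
Tpm2, chr4:43523505-43523804, minus strand: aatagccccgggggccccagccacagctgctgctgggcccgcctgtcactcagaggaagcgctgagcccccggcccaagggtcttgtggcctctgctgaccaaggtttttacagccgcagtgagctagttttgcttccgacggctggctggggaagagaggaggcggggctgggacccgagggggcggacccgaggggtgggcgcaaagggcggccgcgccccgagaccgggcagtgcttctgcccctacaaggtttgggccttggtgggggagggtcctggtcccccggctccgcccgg
Cnn2, chr10:79988350-79988649, plus strand: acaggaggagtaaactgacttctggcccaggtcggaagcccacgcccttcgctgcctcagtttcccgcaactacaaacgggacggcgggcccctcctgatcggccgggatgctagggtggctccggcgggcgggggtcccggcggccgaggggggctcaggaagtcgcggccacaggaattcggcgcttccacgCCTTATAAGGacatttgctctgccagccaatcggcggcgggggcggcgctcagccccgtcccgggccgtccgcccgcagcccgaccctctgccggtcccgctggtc
Acta2, chr19:34255324-34255623, minus strand: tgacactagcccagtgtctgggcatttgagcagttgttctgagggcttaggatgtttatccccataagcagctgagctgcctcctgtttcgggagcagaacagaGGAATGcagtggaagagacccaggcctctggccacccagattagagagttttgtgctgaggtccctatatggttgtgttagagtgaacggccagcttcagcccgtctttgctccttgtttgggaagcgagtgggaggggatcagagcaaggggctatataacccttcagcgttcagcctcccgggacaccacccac
The Cnn2 promoter held a CArG box 56 bases before the start, the Acta2 promoter held GGAATG 146 bases before it, and neither motif was matched in the Tpm2 window. Among all 9 promoters a CArG box of the strict form was found in 2 (Cnn2, and Myl9 at 161 bases before the start), against 1.63% of 32851 promoters of the same length. A promoter without such a match may still hold a looser box. The Acta2 window, for instance, holds ccctatatgg and ccttgtttgg, which come close to the strict form and were not counted. GGAATG or its reverse was found in 3 of 9 (Acta2, Tpm1 at 56 bases and Tagln2 at 80 and 118 bases before the start), against 14.7% of all promoters. The 2 motifs share no bases in these matches, and a match is a description of letters.

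Each library held 13952738 to 15607754 reads, but only 529162 to 643055 were counted for a gene, while 84.5% to 87.3% fell in no gene. Rows of genes that lie opposite an exon make up 16.1% of all counted rows and held 84.0% of the gene reads. The sources used here do not say whether the libraries kept strand or how strand was set in counting. Were the setting opposite to the libraries, the row of every gene, and not just of those opposite an exon, would hold stray reads of the other strand. Over shared exon bases, reads of a gene's own RNA would then be counted in the row opposite it. Which setting was used was not tested. Each level below is thus that of a deposited row and may not be the level of the gene's RNA. Levels are given as reads per 1000000 scaled gene reads (CPM). A single read was worth 1.52 to 2.17 CPM, and 3 reads, the floor used for a gene without reads, 4.57 to 6.52 CPM. A fold given as at least a value sets this floor against the reads of the other group taken as exact, so the fold may lie below it. RAS tumor 2 stood apart from the other RAS tumors: on the first principal component, which held 56.4% of the variance, it scored -11.15 against -53.27 to -71.43 for the others and -10.69 to 12.98 for the PDGFB tumors. On the second, which held 19.4%, it scored -18.45, within the other RAS tumors (-5.16 to -42.74). The PDGFB tumors scored 36.85 to 49.38 there. The targeted genes gave few reads. Trp53 had 0 to 5 reads in every library, Pdgfb 4 to 21 in PDGFB tumors and 1 to 6 elsewhere, and Hras 9 to 25 in RAS tumors and 4 to 19 elsewhere, so these rows check the labels little.

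In PDGFB tumors, 5 of the 10 genes were above normal brain in every library (Tpm1, Tpm4, Cnn3, Tagln and Tagln2). In RAS tumors, 8 were (these 5 with Tpm2, Cnn2 and Acta2). Between the tumors, the RAS group lay wholly above the PDGFB group for Tpm2, Tpm4 and Cnn2, and for Acta2 by the worth of part of 1 read. Of the 10 members, 7 passed the filter on low counts, of which Tpm2 and Cnn2 did so only through the RAS tumors, and Cnn1, Acta2 and Myl9 did not pass. Of the 7, 5 were called higher in PDGFB tumors than in normal brain (edgeR quasi-likelihood fit, adjusted p under 0.05), where 20.2% of the 7722 genes tested were called higher and 25.1% lower, and 22.5% lay wholly higher and 28.1% wholly lower. All 7 were called higher in RAS tumors than in normal brain, against 26.9% of genes called higher, 29.3% called lower, 24.0% wholly higher and 28.5% wholly lower. RAS tumors against PDGFB tumors gave 5 of 7 called higher (Tpm1, Tpm2, Tpm4, Cnn2 and Cnn3), against 17.4% called higher, 14.6% called lower, 10.9% wholly higher and 8.84% wholly lower. No member was lower at an adjusted or unadjusted p under 0.05 in the edgeR fit of any of the 3 comparisons, nor called lower with DESeq2, limma-voom or another alternative tried. Since these contrasts stood behind the choice of members, nothing is read from the counts. In bulk tissue, more cells of a type and more RNA per cell cannot be told apart.

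**Figure D1:**
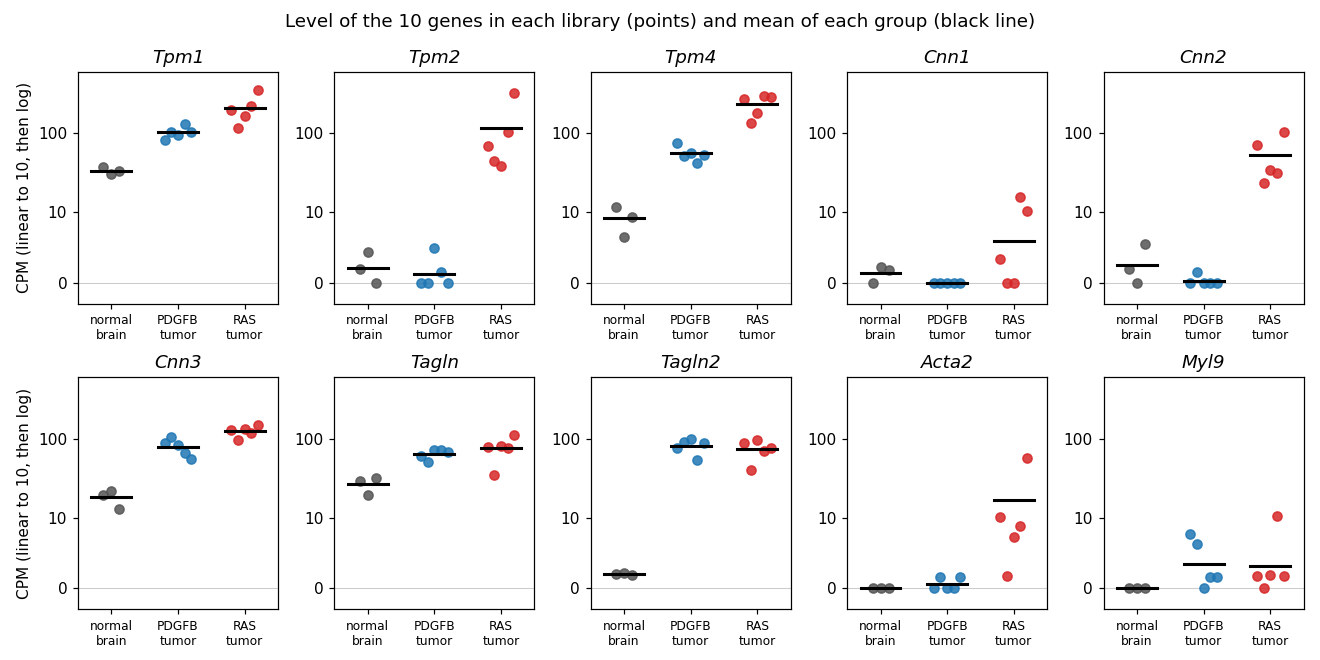
CPM (vertical axis, linear to 10 and logarithmic above) of the 10 genes in normal brain (3 libraries), PDGFB tumors (5) and RAS tumors (5), with 1 point per library and a black line at the group mean. Tpm2 and Cnn2 lie at or under 5.58 CPM in every normal and PDGFB library and above 23 CPM in every RAS tumor, whereas Tagln and Tagln2 overlap between the tumor groups.

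Tpm1 (ENSMUSG00000032366, chr9:67022590-67049406, minus strand) makes the alpha tropomyosins of muscle and of many other cells. Its levels were 37.1, 30.4 and 33.5 CPM in normal brain, 82.3, 104, 94.3, 130 and 104 CPM in PDGFB tumors 1 to 5, and 197, 116, 164, 222 and 356 CPM in RAS tumors 1 to 5. Both tumor groups lay above normal brain, and RAS tumor 2 lay within the PDGFB range. The fitted log2 fold change was 1.60 ± 0.34 (SE) for PDGFB tumors against normal brain, 2.64 ± 0.35 for RAS tumors against normal brain and 1.03 ± 0.25 between the tumors.

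Tpm2 (ENSMUSG00000028464, chr4:43514711-43523765, minus strand) makes beta tropomyosin, abundant in smooth and skeletal muscle. It gave 1, 2 and 0 reads in normal brain and 0, 0, 3, 1 and 0 reads in PDGFB tumors, against 41, 27, 21, 59 and 184 reads in RAS tumors 1 to 5, or 69.0, 45.2, 38.2, 103 and 323 CPM. No RAS tumor overlapped the other groups, and RAS tumor 5 held more than the remaining 4 together. From the 3 reads of normal brain, the ratio of RAS tumors to normal brain was 58.0 (95% counting interval 19.7 to 283). Against PDGFB tumors the log2 fold change was 6.29 ± 0.81. Without RAS tumor 5 it was 5.45, and without PDGFB tumor 3, which held most of the PDGFB reads, 7.55. Against normal brain the fitted value of 5.71 became 4.96 without RAS tumor 5, 6.67 without normal sample 2 and 5.11 with limma-voom. PDGFB tumors and normal brain were both close to the floor, and their fitted difference of -0.58 ± 1.70 turned to 0.42 without normal sample 2.

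Tpm4 (ENSMUSG00000031799, chr8:72134975-72153142, plus strand) makes a tropomyosin of non-muscle cells found on stress fibers. Its levels were 11.7, 6.52 and 9.30 CPM in normal brain, 74.7, 51.2, 56.9, 42.8 and 53.0 CPM in PDGFB tumors, and 271, 136, 180, 300 and 290 CPM in RAS tumors. The 3 groups did not overlap in any pair. The log2 fold changes were 2.56 ± 0.39 and 4.64 ± 0.39 against normal brain, for PDGFB and RAS tumors, and 2.07 ± 0.25 between the tumors. Of the tropomyosins, Tpm1 and Tpm4 were thus read in all 13 libraries, while Tpm2 exceeded 3 reads in RAS tumors alone.

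Cnn1 (ENSMUSG00000001349, chr9:22099216-22109630, plus strand), the calponin of differentiated smooth muscle, gave 0, 1 and 1 reads in normal brain, none in PDGFB tumors, and 2, 0, 0, 9 and 6 reads in RAS tumors. It was too low for the fit. RAS tumors were at least 6.23-fold higher than PDGFB tumors, taking 3 reads over the PDGFB group, and 3.66-fold without RAS tumor 4. The ratio to normal brain was 4.45 (95% counting interval 1.06 to 39.7), and without RAS tumor 4 it was 2.61 (0.521 to 25.3) and without normal sample 1 2.94 (0.699 to 26.3). The lower end of the interval was also under 1 without RAS tumor 5 (0.784), normal sample 2 (0.970) or normal sample 3 (0.898).

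Cnn2 (ENSMUSG00000004665, chr10:79988584-79996062, plus strand), a calponin of smooth muscle and many non-muscle cells including macrophages, gave 1, 0 and 3 reads in normal brain and 0, 1, 0, 0 and 0 reads in PDGFB tumors. RAS tumors gave 42, 14, 19, 18 and 59 reads, or 70.7, 23.4, 34.5, 31.5 and 104 CPM. All RAS tumors were above all other libraries. With 1 read in the PDGFB group the ratio between the tumors was 167 (95% counting interval 29.6 to 6644), and the log2 fold change against normal brain was 4.22 ± 0.73. The latter was 5.48 without normal sample 3, which held 3 of the 4 normal reads. The fitted difference between tumors of 6.64 became 7.93 without PDGFB tumor 2, which held the 1 read, and 5.55 with limma-voom. PDGFB tumors and normal brain could not be told apart at this depth (ratio of normal brain to PDGFB tumors 8.40, interval 0.831 to 414).

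Cnn3 (ENSMUSG00000053931, chr3:121426497-121458207, plus strand), the acidic calponin, which is made in brain and other non-muscle tissue, differed less between the tumors. Its levels were 19.5, 21.7 and 13 CPM in normal brain, 88.4, 106, 83.0, 64.9 and 54.6 CPM in PDGFB tumors, and 128, 97.1, 131, 119 and 147 CPM in RAS tumors. RAS tumor 2 lay below PDGFB tumor 2, so the tumor groups overlapped. The log2 fold changes against normal brain were 2.13 ± 0.32 and 2.78 ± 0.32. Between the tumors the value was 0.65 ± 0.22, and its call was lost under 12 of the alternatives, among them the replicate block, with log2 0.66, and the removal of RAS tumor 1 (0.63) or 5 (0.59), of PDGFB tumor 3 (0.63), 4 (0.56) or 5 (0.53), or of normal sample 1 (0.60) or 2 (0.60).

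Tagln (ENSMUSG00000032085, chr9:45929619-45936058, minus strand), also known as SM22-alpha, is an early gene of smooth muscle. Its levels were 29.3, 19.6 and 31.6 CPM in normal brain, 61.0, 51.2, 71.6, 71.3 and 67.4 CPM in PDGFB tumors, and 77.4, 35.1, 80.0, 75.3 and 111 CPM in RAS tumors. Both tumor groups were above normal brain, and RAS tumor 2 was the closest to it. The log2 fold changes against normal brain were 1.25 ± 0.34 and 1.48 ± 0.34, and the tumors differed by 0.23 ± 0.26 with overlapping groups.

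Tagln2 (ENSMUSG00000026547, chr1:172500047-172507380, plus strand), the transgelin of non-muscle cells, gave 1 read in each normal sample. PDGFB tumors held 50, 58, 60, 34 and 55 reads (76.2, 90.1, 97.6, 53.9 and 88.3 CPM) and RAS tumors 52, 24, 53, 40 and 43 reads (87.5, 40.2, 96.3, 70.1 and 75.5 CPM). Every tumor was thus well above every normal sample, and the tumor groups overlapped. The ratio to normal brain was 40.8 (95% counting interval 13.8 to 199) for PDGFB tumors and 37.0 (12.49 to 181) for RAS tumors. Between the tumors the log2 fold change was -0.14 ± 0.24, and 0.04 without RAS tumor 2.

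Acta2 (ENSMUSG00000035783, chr19:34241090-34255590, minus strand), alpha smooth muscle actin, gave no read in normal brain and 0, 1, 0, 0 and 1 reads in PDGFB tumors. RAS tumors gave 6, 1, 4, 5 and 32 reads, so that RAS tumor 5 held most of the group's 48 reads. RAS tumors were at least 8.38-fold higher than normal brain, taking 3 reads over the normal group, and at least 3.48-fold without RAS tumor 5. Without normal sample 1 or 3 the bound was 5.54 or 5.40. The ratio to PDGFB tumors was 26.4 (95% counting interval 6.92 to 224), and 11.0 (2.58 to 98.3) without RAS tumor 5. It was 42.1 without PDGFB tumor 2 and 42.4 without PDGFB tumor 5, which held the 2 reads.

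Myl9 (ENSMUSG00000067818, chr2:156775420-156781658, plus strand), the myosin light chain whose phosphorylation starts smooth muscle contraction, gave no read in normal brain, 5, 4, 0, 1 and 1 reads in PDGFB tumors and 1, 0, 1, 6 and 1 reads in RAS tumors. The groups of tumors overlapped, with a ratio of RAS to PDGFB tumors of 0.900 (95% counting interval 0.330 to 2.39). That ratio was 0.374 (0.0670 to 1.42) without RAS tumor 4. Against normal brain PDGFB tumors were at least 1.75-fold and RAS tumors at least 1.57-fold higher. Without normal sample 1 or 3 the PDGFB bound was 1.16 or 1.13 and the RAS bound 1.04 or 1.01. Without RAS tumor 4 the RAS tumors too were at the floor, and no fold is given.

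**Figure D2:**
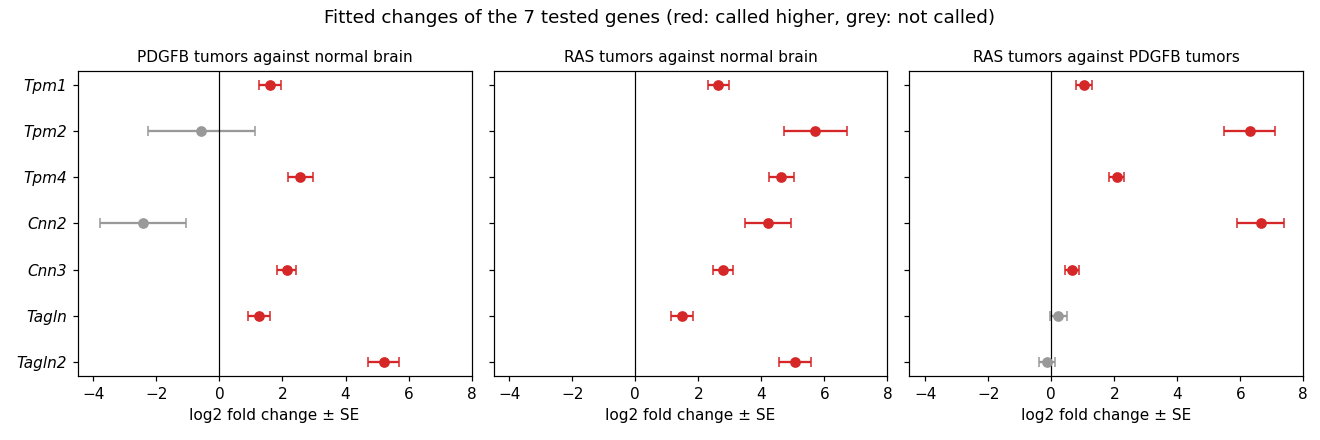
Fitted log2 fold change (horizontal axis) with its standard error for the 7 genes that passed the low-count filter, in PDGFB tumors against normal brain, RAS tumors against normal brain and RAS against PDGFB tumors. Red marks genes called higher and grey genes not called. Values of Tpm2, Cnn2 and Tagln2 against a group with at most 4 reads depend on the prior count of the fit. Tagln and Tagln2 lie close to 0 between the tumors and Tpm2 and Cnn2 above 6.

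Compared per kilobase of exon, the order of the genes differed among the groups. In normal brain Tagln led with 13.5 CPM per kb, wholly above the next genes, Cnn3 (5.96), Tpm1 (5.19) and Tpm4 (4.17), whose ranges overlapped from neighbor to neighbor. The other 6 genes were at or under 1.02. In PDGFB tumors the order was Tagln2 (39.0), Tagln (32.4), Cnn3 (26.1), Tpm4 (25.3) and Tpm1 (15.9), each overlapping the next, then a gap to Myl9 (2.93) and the rest under 0.45. In RAS tumors Tpm4 led with 107 CPM per kb, and its range (61.5 to 136) lay above those of all members but Tpm2 (39.8, range 13.1 to 111). Cnn3 (41.0), Tpm2, Tagln (38.1), Tagln2 (35.5), Tpm1 (32.5) and Cnn2 (21.4) overlapped from neighbor to neighbor. Acta2 (7.65), Myl9 (2.71) and Cnn1 (2.17) came last. Tagln, Cnn3 and Tpm4 lie opposite exons of other genes (below), so their places in these orders are those of deposited rows and uncertain.

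The 5 RAS tumors were not alike in these genes. RAS tumor 5 was the highest of its group in 6 of the 10 (Tpm1, Tpm2, Cnn2, Cnn3, Tagln and Acta2), RAS tumor 4 in 3 (Tpm4, Cnn1 and Myl9) and RAS tumor 3 in Tagln2. RAS tumor 2, the one that stood apart on the first principal component, was the lowest in 7 of the 8 members with reads in all RAS tumors, the exception being Tpm2. The ratio of the highest to the lowest RAS tumor ran from 1.52 for Cnn3, through 2.21 for Tpm4, 2.40 for Tagln2, 3.09 for Tpm1, 3.15 for Tagln and 4.42 for Cnn2, to 8.46 for Tpm2 and 33.6 for Acta2, the latter resting on 1 read in the lowest. In PDGFB tumors it was between 1.397 (Tagln) and 1.94 (Cnn3) for the 5 members read in all of them. Without RAS tumor 2, 5 members were still called higher in RAS than in PDGFB tumors, and without RAS tumor 5, 4 were, as Cnn3 was not.

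**Figure D3:**
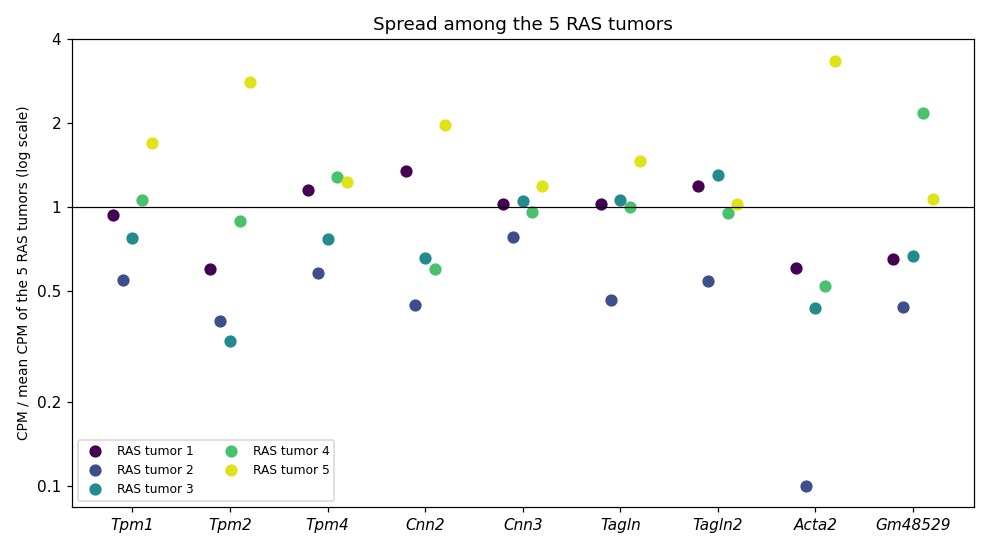
CPM of each RAS tumor divided by the mean CPM of the 5 RAS tumors (vertical axis, log scale) for the 7 tested genes, Acta2 and Gm48529, the row opposite Tagln. RAS tumor 5 is the highest in Tpm1, Tpm2, Cnn2, Cnn3, Tagln and Acta2, and RAS tumor 2 the lowest in all shown but Tpm2.

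Of the members, 3 lie opposite exons of other genes. Reads of Gm26586, Gm42928 and Gm48529 outnumbered those of the member in every library, whereas Pcsk7 had fewer reads than Tagln in every tumor. Gm26586, an antisense gene (ENSMUSG00000097472, chr8:72137389-72140820, minus strand), lies within the span of Tpm4 and shares 134 exon bases with it. Gm42928 (ENSMUSG00000105813, chr3:121424236-121427574, minus strand), a gene model still to be verified by experiment, covers the start of Cnn3 and shares 538 bases. Gm48529, an antisense gene (ENSMUSG00000111521, chr9:45930112-45933738, plus strand), lies within Tagln and shares 1241 bases. The end of Pcsk7 (ENSMUSG00000035382, chr9:45906497-45929726, plus strand), which encodes a proprotein convertase, shares 108 bases with Tagln. The other 7 members share no exon bases with a gene on the other strand.

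Gm26586 held 59, 56 and 60 reads in normal brain, 537, 386, 453, 409 and 458 in PDGFB tumors and 2005, 871, 848, 1827 and 1410 in RAS tumors, with no overlap between any 2 groups. For each Tpm4 read there were 9.83 to 18.7 Gm26586 reads in normal brain, 11.0 to 15.2 in PDGFB tumors and 8.55 to 12.45 in RAS tumors. The ratio thus overlapped among all groups, and the log2 fold changes of Gm26586 (2.60 ± 0.28, 4.37 ± 0.31 and 1.77 ± 0.22, in the order used above) were near those of Tpm4. Both rows were called higher in all 3 comparisons.

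Gm42928 held 227, 209 and 236 reads in normal brain, 1025, 1097, 727, 982 and 745 in PDGFB tumors and 1086, 905, 633, 1085 and 834 in RAS tumors. Both tumor groups were above normal brain, by log2 1.69 and 1.82, and they overlapped each other (log2 0.13, or -0.017 scaled by library totals). Per Cnn3 read there were 20.9 to 33.7 reads of Gm42928 in normal brain, 14.3 to 24.0 in PDGFB tumors and 8.79 to 16.0 in RAS tumors. When the rows were summed, the log2 fold change of Cnn3 in RAS tumors against normal brain was 1.97 in place of 2.78, and that between the tumors was 0.16 and not called.

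The rows of Tagln and Gm48529 did not move alike. Gm48529 held 51, 54 and 45 reads in normal brain, 205, 204, 417, 330 and 500 in PDGFB tumors and 877, 595, 830, 2815 and 1383 in RAS tumors, and no 2 groups overlapped. Its log2 fold changes were 2.39 ± 0.47 and 4.50 ± 0.52 against normal brain and 2.11 ± 0.37 between the tumors, against 1.25, 1.48 and 0.23 for Tagln. For each Tagln read there were 2.65 to 6 Gm48529 reads in normal brain, 5.13 to 11.9 in PDGFB tumors and 18.9 to 65.5 in RAS tumors, where RAS tumor 4 had the highest ratio. RAS tumors lay wholly above the other groups in this ratio, and PDGFB tumors overlapped normal brain. With the rows opposite Tagln added to it, the log2 fold changes were 1.98, 3.93 and 1.95, and the difference between the tumors, not called for Tagln alone, was called. Without knowledge of strand, reads of the 2 genes cannot be told apart over the shared bases. The Gm48529 row may thus hold reads of Tagln RNA, and the small difference of the Tagln row between the tumors may not be that of its RNA.

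Pcsk7 held 23, 18 and 19 reads in normal brain, 17, 17, 16, 20 and 7 in PDGFB tumors and 11, 11, 10, 15 and 7 in RAS tumors. It was lower in RAS tumors than in normal brain (log2 -1.08, -1.03 without a low-count filter and -0.93 without normal sample 1, where the call was lost) and was not called in the other comparisons.

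**Figure D4:**
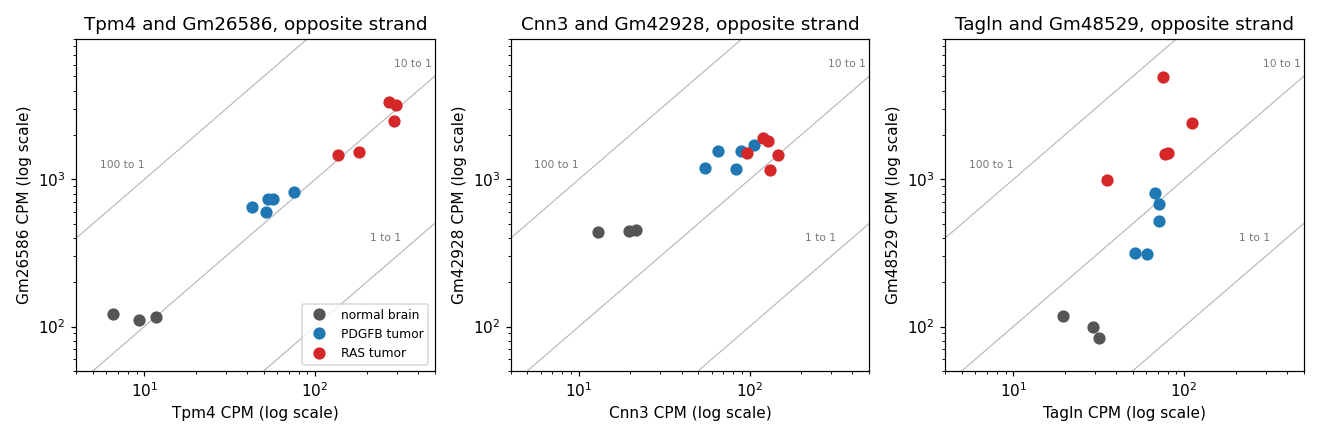
CPM of Tpm4, Cnn3 and Tagln (horizontal axes, log scale) against CPM of the row opposite each on the other strand (vertical axes, log scale), 1 point per library. Grey lines mark ratios of 1, 10 and 100 to 1. For Tpm4 the 3 groups lie along 1 ratio, whereas for Tagln the RAS tumors lie above the PDGFB tumors at similar Tagln levels.

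Other genes of the same machinery were taken as 5 lists of 76 names, of which 73 matched 1 row and 51 passed the filter. The lists were drawn up by function but with earlier results of these data known, so their counts and p-values are not independent of the data. Adjusted p-values below are from the edgeR quasi-likelihood fit with Benjamini-Hochberg adjustment over 7722 genes. Against normal brain, 17 of 51 (33.3%) were called higher and 8 (15.7%) lower in PDGFB tumors, where 20.2% and 25.1% of all genes tested were (median log2 0.35, and 0.00 over all genes). In RAS tumors 38 (74.5%) were higher and 6 (11.8%) lower than in normal brain, where 26.9% and 29.3% of all genes were (median 1.44, and 0.02 over all genes). In RAS against PDGFB tumors, 31 (60.8%) were higher and 2 (3.92%) lower, where 17.4% and 14.6% of all genes were (median 1.04, and -0.03 over all genes). The same shares over all genes stand behind the counts of each list below, and the comparisons share samples. With the filter run on PDGFB tumors and normal brain alone, 42 list genes passed in place of 51, and 6691 genes in all in place of 7722. For genes that pass only through the RAS tumors, a higher call in RAS tumors was close to fixed. The 8 lower calls in PDGFB tumors became 5 without normal sample 2 or 3, and the 2 lower calls between the tumors became 0 without PDGFB tumor 1 or 3 or RAS tumor 1 or 4, and 1 without PDGFB tumor 2 or RAS tumor 5.

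Of 14 genes of smooth muscle contraction only 4 passed the filter, and those left out included the smooth muscle myosin Myh11 and the gamma actin Actg2. Cald1, caldesmon, which holds actin and tropomyosin and brakes myosin, had 12.6 ± 2.59 CPM (SD, n = 3) in normal brain, 45.1 ± 17.3 (n = 5) in PDGFB tumors and 225 ± 115 (n = 5) in RAS tumors. It was higher in both tumors than in normal brain (edgeR adjusted p = 0.00624 and 3.27e-06) and higher in RAS than in PDGFB tumors (log2 2.31 ± 0.34, adjusted p = 6.98e-05). Smtn, smoothelin, was higher in RAS tumors than in normal brain by a ratio of 12.4 (95% counting interval 4.07 to 61.5), and its log2 value of 3.50 was 4.38 without normal sample 1. Its call in PDGFB tumors (log2 2.39) was lost under 7 alternatives, among them the removal of PDGFB tumor 2 (2.31), 4 (2.27) or 5 (2.35) or of normal sample 2 (2.54) or 3 (1.90), and the value was 3.34 without normal sample 1. Ppp1r12b, a targeting subunit of myosin phosphatase, was lower than in normal brain in the PDGFB group (log2 -2.26) and the RAS group (-2.86), with edgeR adjusted p of 0.00351 and 0.000673.

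Among other actins, tropomyosins and myosin chains (11 tested of 14), 2 were higher in PDGFB tumors, 8 higher and 2 lower in RAS tumors, and 7 higher and 1 lower in RAS than in PDGFB tumors. Tpm3, the tropomyosin gene outside the 10, had a log2 fold change of 0.25 in PDGFB tumors, not called, 1.44 in RAS tumors and 1.19 between the tumors, both called. It is named here after its values were seen, to complete the tropomyosins. Actb, the beta actin of all cells, exceeded normal brain in the PDGFB group (log2 1.37 ± 0.27, edgeR adjusted p = 0.000486). It also did so in the RAS group (log2 2.37 ± 0.28, edgeR adjusted p = 2.77e-06). Myh9, non-muscle myosin heavy chain IIA, had 18.8 ± 5.48 CPM (n = 3) in normal brain, 23.7 ± 6.60 (n = 5) in PDGFB tumors and 189 ± 112 (n = 5) in RAS tumors, and the RAS tumors were wholly above both groups (log2 3.32 ± 0.51 and 2.98 ± 0.40). Actg1, gamma actin of non-muscle cells, was 4.13-fold higher in RAS than in PDGFB tumors (edgeR adjusted p = 0.000119). Myl12a, a non-muscle relative of Myl9, was higher in RAS tumors than in normal brain (log2 2.57 ± 0.66, and 3.74 without normal sample 1). Tmod1, a cap of the slow end of the filament, was 1.95-fold higher in PDGFB tumors and 2.485-fold higher in RAS tumors than in normal brain. Genes known from neurons were lower in RAS tumors than in normal brain, namely Tmod2 (log2 -2.24) and Tagln3 (-1.79, and -2.52 with limma-voom). Tmod2 was also lower than in PDGFB tumors by log2 -1.28, but this call was lost without PDGFB tumor 1 (-1.22) or 3 (-1.21) or RAS tumor 1 (-1.09) or 4 (-1.08), and the value was -1.94 without RAS tumor 2.

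Of the 15 tested genes of actin bundling and adhesion, 13 were higher in RAS tumors than in normal brain and 2 were not called. RAS against PDGFB tumors gave 11 higher and 1 lower, and PDGFB tumors against normal brain 6 higher and 1 lower. Flna, filamin A, which links filaments into networks, had 3.75 ± 4.90 CPM (n = 3) in normal brain, 20.5 ± 5.45 (n = 5) in PDGFB tumors and 173 ± 57.2 (n = 5) in RAS tumors. Its log2 fold change in RAS tumors was 5.38 against normal brain (7.19 without normal sample 3) and 3.06 ± 0.34 against PDGFB tumors (edgeR adjusted p = 5.12e-06). Actn1, alpha-actinin 1, was 7.01-fold higher in RAS than in PDGFB tumors. Vasp, a filament elongation factor, was higher in RAS tumors than in normal brain by a ratio of 38.0 (95% counting interval 10.3 to 317). In PDGFB tumors that ratio was 8.57 (2.21 to 73.5). In PDGFB tumors, Zyx, zyxin of focal adhesions, exceeded normal brain by a ratio of 9.05 (2.34 to 77.4), and in RAS tumors by 38.0 (10.3 to 317). Actn4, alpha-actinin 4, fell below normal brain in the PDGFB group (log2 -1.49 ± 0.40) but was called higher in the RAS group (0.94 ± 0.36). It was 5.38-fold higher in RAS than in PDGFB tumors. Fhl1, a LIM protein of muscle, was lower in RAS than in PDGFB tumors by log2 -0.92, a call lost under 10 alternatives, among them the removal of PDGFB tumor 1, 2 or 3 or of RAS tumor 1, 4 or 5 (log2 -0.93 to -0.81).

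All 14 genes of actin turnover were tested. In RAS tumors 12 were higher and 1 lower than in normal brain, and 10 were higher than in PDGFB tumors with the other 4 not called, while PDGFB tumors had 4 higher and 2 lower than normal brain. Tmsb4x, thymosin beta 4, which holds actin monomers, had 89.0 ± 17.6 CPM (n = 3) in normal brain, 150 ± 23.6 (n = 5) in PDGFB tumors and 671 ± 278 (n = 5) in RAS tumors, with log2 2.16 ± 0.24 between the tumors (edgeR adjusted p = 4.45e-06). Capg, a capping protein abundant in macrophages, had no read in normal brain, 3.14 ± 3.13 CPM in PDGFB tumors (n = 5) and 54.8 ± 45.8 in RAS tumors (n = 5). RAS tumors were at least 27.4-fold higher than normal brain and had a log2 value of 4.03 ± 0.67 against PDGFB tumors, 3.43 without RAS tumor 5 and 4.64 without PDGFB tumor 2. Pfn2, the profilin of neurons, was lower than in normal brain in both tumors (log2 -1.18 and -1.69). In PDGFB tumors Coro1c, a coronin, and Wdr1, a cofactor of cofilin, were higher than in normal brain (log2 1.33 and 1.11), and Cap1, which recycles actin monomers, was lower (-0.62). These calls were lost under 1, 4 and 14 alternatives. For Wdr1 these included the removal of PDGFB tumor 2 (log2 0.84) or of normal sample 1 (1.21) or 2 (1.10). For Cap1 they included the removal of any library but PDGFB tumor 4 and RAS tumors 2 and 3 (-0.58 to -0.51). For Coro1c the call was lost without normal sample 2 (log2 1.08), and the value was 2.02 without normal sample 3. In RAS tumors against normal brain, Coro1c and Wdr1 were also called higher (log2 2.23 and 1.82), and Cap1 was not called (-0.45).

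Of SRF, its cofactors and the genes listed with them, 7 of 11 matched genes were tested, and in PDGFB tumors 3 were higher and 4 lower than in normal brain. Srf itself had 67.8 ± 8.16 CPM (n = 3) in normal brain, 12.4 ± 8.28 (n = 5) in PDGFB tumors and 16.6 ± 6.25 (n = 5) in RAS tumors. It was lower in both tumors (log2 -2.44 ± 0.44 and -2.02 ± 0.43, edgeR adjusted p = 0.000263 and 0.000699), and the tumors differed by 0.42 ± 0.45, not called. Mrtfb, an SRF cofactor that actin monomers hold back, was lower in PDGFB tumors (log2 -2.81 ± 0.66) and in RAS tumors (-1.80 ± 0.61). The latter was -2.39 without RAS tumor 2, and its call was lost without normal sample 2 (-1.80) or 3 (-1.56). Rhoc, a small GTPase, was higher than in normal brain in PDGFB tumors (log2 2.64) and in RAS tumors (3.68). Rock1, a kinase that acts on myosin, was also higher in both, by count ratios of 11.4 (95% counting interval 2.997 to 97.1) and 10.7 (2.79 to 91.6). Between the tumors, Rhoa (log2 0.79 ± 0.21) and Rhoc (1.04 ± 0.37) were higher in RAS tumors, calls lost under 1 and 13 alternatives. For Rhoc these included the removal of PDGFB tumor 3, 4 or 5, of RAS tumor 4 or 5, or of normal sample 1 or 2 (log2 0.77 to 1.02). Of the list genes named, Smtn, Ppp1r12b, Tmod1, Myl12a, Zyx, Actn4, Actn1, Coro1c, Wdr1, Cap1, Mrtfb and Rhoa lie opposite an exon of another gene, so their rows are uncertain in the same way as that of Tagln, beside the doubt about strand that touches every row. Actb, Actg1, Tmsb4x and Rpl6 have near-identical copies in the genome, and their rows are uncertain too.

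**Figure D5:**
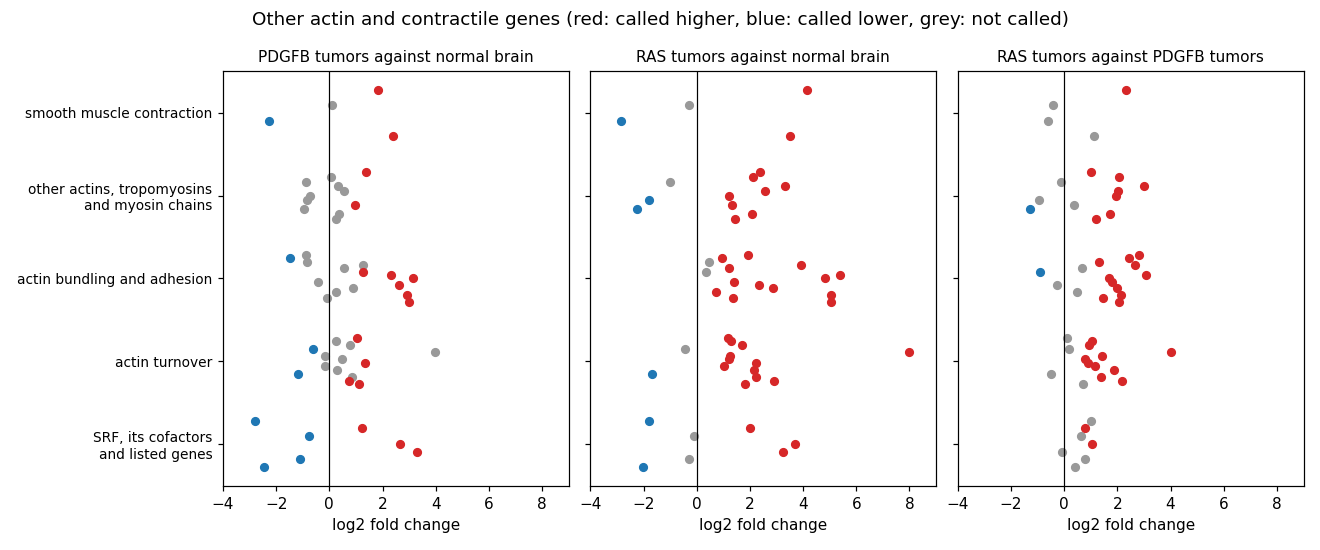
Log2 fold change (horizontal axis) of the 51 tested genes of the 5 lists (rows), 1 point per gene, in the 3 comparisons. Red points were called higher, blue lower and grey not called. In RAS tumors 38 of 51 were higher than in normal brain and in PDGFB tumors 17 of 51.

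Across the 13 libraries, the 5 genes outside the 10 and outside the predicted genes whose standardised log2 CPM lay closest to that of Tpm1, the member with the highest mean level, were Rpl6, Cotl1, Wdr38, Surf2 and Ppic, with root mean square differences of 0.24, 0.24, 0.24, 0.26 and 0.27 against a median of 1.34 over 6010 genes. Cotl1, a coactosin-like protein that holds actin filaments, had 7.88 ± 1.39 CPM (n = 3) in normal brain, 27.5 ± 4.34 (n = 5) in PDGFB tumors and 60.3 ± 14.2 (n = 5) in RAS tumors. Ppic, a cyclophilin, had no read in normal brain, 5.997 ± 0.715 CPM in PDGFB tumors and 21.0 ± 7.91 in RAS tumors. Wdr38 and Surf2 lie opposite exons of other genes (Rpl35 and Gm13496, and Surf1 and Surf4).

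Markers of the cells that are known for these genes were read beside them. Of 12 markers of pericytes and smooth muscle, 11 had reads in each group, with a summed level of 52.1 to 71.7 CPM in normal brain, 56.4 to 176 CPM in PDGFB tumors and 80.3 to 187 CPM in RAS tumors. Myh11, the defining myosin of smooth muscle, had no read in either tumor group and 1 in normal brain. In the tumors the sum came largely from Mcam, which lies opposite an exon and held 228 of 297 reads in the PDGFB group, 243 of 400 in the RAS group and 11 of 91 in normal brain. The other 11 markers summed to 46.5 to 60.9 CPM in normal brain, 12.2 to 31.7 in PDGFB tumors and 33.5 to 73.6 in RAS tumors, so that PDGFB tumors then lay below normal brain. These and the other sums without a leading marker were computed after the values were seen. Among single markers, Pdgfrb and Rgs5 of pericytes held 4 and 19 reads in normal brain, 11 and 10 in the PDGFB group, and 30 and 70 in the RAS group. Notch3 (36, 15 and 14 reads, opposite an exon) and Vtn (15, 7 and 6 reads, in the same order) held more reads in normal brain than in either tumor group. These reads are totals over 3 normal samples and 5 tumors per group, not scaled for the number of libraries. In the full sum, which is largely Mcam, RAS tumor 5 had 98.3 CPM and RAS tumor 1, the highest, 187 CPM. The order of the RAS tumors without Mcam was not computed, and a tie between this sum and the members was not tested.

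The full sums of the lists for 3 other cell types were highest in RAS tumors, and their part in the members' levels was not tested. The 10 fibroblast and meninges markers, of which 9 had reads in each group, summed to 133 to 188 CPM in normal brain, 52.8 to 103 in PDGFB tumors and 222 to 762 in RAS tumors. In normal brain 208 of the 243 reads were of Ptgds, which had 29 in the PDGFB and 31 in the RAS group. Without Ptgds the sums were 17.6 to 32.6, 48.1 to 94.7 and 211 to 755 CPM, so that PDGFB tumors lay above normal brain and not below it. Slc6a13 was at 0 in both tumors and Lum in normal brain. The 12 endothelial markers, all read in tumors and 11 in normal brain (Cldn5 at 0), summed to 39.1 to 45.0, 12.7 to 43.3 and 47.3 to 112 CPM. Egfl7, which lies opposite an exon, held 52 of 225 of these reads in the RAS group and 3 of 62 in normal brain. Without it the sums were 34.8 to 45.0, 12.7 to 38.5 and 34.5 to 75.3 CPM, and the groups overlapped. The 12 macrophage and microglia markers, all read in tumors and 11 in normal brain (Ptprc at 0), summed to 422 to 452, 303 to 392 and 606 to 1004 CPM. Csf1r, which lies opposite an exon, held 65.1% of these reads in normal brain, 54.4% in PDGFB and 36.0% in RAS tumors, and without it the sums were 130 to 188, 127 to 189 and 352 to 644 CPM. In each of the 3 full sums RAS tumor 5 was the highest library, as it was for Tpm1, Tpm2, Cnn2, Cnn3, Tagln and Acta2. Markers of the tissue the labels name were present in all groups: the 8 oligodendrocyte precursor markers summed to 109 to 119 CPM in normal brain, 599 to 846 in PDGFB tumors and 183 to 356 in RAS tumors. The 8 mature oligodendrocyte markers summed to 1810 to 2607, 785 to 890 and 672 to 934 CPM, with Opalin at 0 in RAS tumors. Cnp, opposite an exon, held 81.3% and 81.1% of these reads in PDGFB and RAS tumors and 33.8% in normal brain, and the other 7 markers summed to 1139 to 1798, 127 to 214 and 79.1 to 338 CPM. The 8 astrocyte markers summed to 713 to 913, 200 to 491 and 125 to 669 CPM. The 12 neuron markers summed to 6490 to 6988, 343 to 724 and 4142 to 9419 CPM. The Nefm row, which lies opposite an exon, held 70.1%, 49.6% and 92.9% of these reads, and the other 11 markers summed to 1980 to 2092, 194 to 393 and 301 to 606 CPM.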

How the data were processed

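RNA of 3 normal brain samples and of tumors, 5 of the PDGFB and 5 of the RAS kind, was isolated with Trizol and made into TruSeq libraries, per the labels' protocols. Of tools and builds, GRCm38, STAR 2.7.9a and fastp 0.22.0 are listed, without role, per the submitters' processing notes. The annotation and the strand setting of the count are not given in the sources used here. The deposited values were raw counts per Ensembl gene, without normalization by the authors. Rows of the aligner's summary (reads unmapped, multimapping, ambiguous or in no gene) were kept out of library sizes and tests. Groups came from titles and, for normal samples, from the tissue label.

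Symbols, positions and opposite exons were taken from GENCODE M21 (GRCm38), which held 52083 of 55416 genes. In R 4.3.3, edgeR 4.0.16 filtered genes (filterByExpr, minimum count 10, minimum total 15), scaled by TMM, and fitted 1 mean per group to all 13 libraries with its quasi-likelihood model, testing 7722 genes two-sided with Benjamini-Hochberg adjustment. A gene was called at an adjusted p under 0.05. CPM used the TMM-scaled sum of tested genes. A fold against a group without reads is a bound from 3 reads over that group, and with 1 to 3 reads a count ratio with an exact 95% interval is given. Intervals cover counting error only. A bound takes the reads of the other group as exact, so it is no confidence limit and the fold may lie below it. The script was tested on simulated data.

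Members, gene lists and marker lists were chosen with earlier results of these data known. Named genes were the members, the genes opposite them, up to 2 called genes per list, direction and comparison, and the 5 genes most like the member with the highest mean CPM (smallest root mean square difference of standardised log2 CPM, pseudocount 1). A gene that the rule names is not reported here. Of the 76 list names, Mkl1, Mkl2 and Myl12b matched no single row. Alternatives were DESeq2 1.42.0 and limma-voom (limma 3.58.1), scaling by RLE or by library totals, a filter of 1 CPM in at least 5 libraries or none, the 2 groups alone, each library left out, the replicate number as a block, genes opposite no exon, and members summed with opposite rows.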

Additional observations from a re-analysis of the deposited data

Results flagged for a closer look

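Among 27 tests of whether the highest or lowest of 5 tumors lies apart from the others (gap over range above 0.71), 5 were past the critical value, 1 of them (Cnn2) by construction. Chance gives about 1 in 20 for normally distributed values. CPM that rest on few reads are not so distributed, so the 5 cannot be held against that rate. Tpm2 stood at 323 CPM (184 reads) in RAS tumor 5, while the other RAS tumors lay between 38.2 and 103 CPM. Acta2 stood at 56.2 CPM (32 reads) in the same tumor, while the others lay between 1.67 and 10.1 CPM. Myl9 had 10.5 CPM (6 reads) in RAS tumor 4 and at most 1.82 CPM in the others. Cnn2 had 1.55 CPM, a single read, in PDGFB tumor 2 and none in the other PDGFB tumors, and with 1 read in the group the gap always equals the range. Pcsk7, whose end lies opposite Tagln, had 11.2 CPM (7 reads) in PDGFB tumor 5 and 25.9 to 31.7 CPM in the others.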

How the results depend on the processing

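Calls of members kept their number within 1.5 times under all alternatives except the fit of genes opposite no exon, which holds only 4 of the 7 tested members and gave 2, 4 and 3 members called higher (PDGFB against normal brain, RAS against normal brain, RAS against PDGFB) in place of 5, 7 and 5. In that fit, PDGFB tumors against normal brain had 10 list genes higher and 3 lower, in place of 17 and 8. List genes opposite an exon are left out of it and cannot be called. Among them are Smtn, Tmod1, Zyx, Wdr1, Coro1c and Rhoa of the 17, and Ppp1r12b, Actn4, Cap1 and Mrtfb of the 8. The 8 lower list genes were 5 with library totals and 5 to 8 with 1 library left out. The 2 lower list genes between the tumors were 1 without a filter, with the looser filter, with DESeq2 and with the replicate block, and 0 to 3 with 1 library left out. Directions turned for Tpm2 in PDGFB tumors against normal brain without normal sample 2 (0.42, with 1 library left out -1.79 to 0.42), for Tagln2 between the tumors without RAS tumor 2 (0.04, with 1 library left out -0.29 to 0.04) and for Gm42928 between the tumors with library totals (-0.017); none of these was called. Apart from the genes left out of the fit of genes opposite no exon, the cause of these changes was not tested. Library totals moved the median gene by 0.23 in PDGFB tumors against normal brain, where 56.9% of calls were then higher in place of 44.5%, and to -0.17 between the tumors, where 42.6% were higher in place of 54.4%. Members below the filter were called without it: Acta2 was higher in RAS tumors than in both other groups, and Cnn1 higher than in PDGFB tumors.

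Tumors with the same number did not deviate together (correlations of 0.14, -0.0019, -0.026, -0.13 and 0.071 for numbers 1 to 5), and only the tumors numbered 1 matched each other best. No pairing by number was thus seen, but such correlations cannot exclude that the numbers mark something shared. With the replicate block, 4 members were called higher in RAS than in PDGFB tumors in place of 5. Depth limits Cnn1, Acta2, Myl9, and Tpm2 and Cnn2 outside RAS tumors, where a read is worth 1.52 to 2.17 CPM. No 2 replicates agreed within sampling noise: the lowest chi-square per degree of freedom of a pair was 1.90.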
